A study of Mus musculus with 11 samples.

Results

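Messenger RNA of wire-injured mouse femoral arteries lacking Nrf3 was set against that of injured femoral arteries from flox control mice, over all genes of the deposited count table. The 6 femoral libraries, 3 of knockout and 3 of control arteries, are 6 of the 11 libraries of the series. The other 5 libraries come from ligated carotid arteries, 2 of knockout and 3 of control, and serve here for the estimate of spread and for a comparison of the femoral changes with those of a second injured vessel. The study asks how Nrf3 loss bears on smooth muscle cells and on the neointima that follows arterial injury.

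The knockout arteries are labelled Nrf3-/- and the control arteries come from flox mice. Wire injury, in which a wire passed through the femoral artery strips its endothelium and stretches the wall, was done in both groups, and arteries were taken on day 7. Age, sex, strain, Cre driver, littermate status and the removed stretch of the gene are not given in the labels, nor whether each library is 1 animal. The p-values below therefore measure the spread between these libraries, which may be partly technical. An uninjured artery was not analysed here, so no value separates a response to injury from a level present before it.

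Nrf3, encoded by Nfe2l3, is a membrane-anchored transcription factor of the cap'n'collar family. It reaches the nucleus after proteolytic release and binds antioxidant response elements as a partner of small Maf proteins. After wire injury an artery is entered by neutrophils and monocytes, and medial smooth muscle cells lose contractile proteins, divide, migrate and lay down matrix to form the neointima.

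Library totals lay between 43698644 and 55998563 counts, with 46198146, 43698644 and 48392496 counts in knockout replicates 1 to 3 and 52470172, 51092766 and 55998563 counts in control replicates 1 to 3. The tissue label was checked against defining markers. All 10 smooth muscle markers were measured, and their summed level was 7850, 10700 and 14100 CPM (counts scaled to library size, with trimmed-mean factors) in knockout replicates 1 to 3 and 14900, 12800 and 13200 CPM in control replicates 1 to 3. None of these 10 genes passed the test, and all 10 had a negative change (median log2 change -0.24). Knockout replicate 3 stood nearest to the controls: on the first principal component of the 6 femoral libraries, which held 45% of the variance, the knockouts lay at 72.5, 55.9 and 16.7 and the controls at -30.7, -54.6 and -59.7. Counts of calls below are therefore given with and without single libraries.

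Markers of other cells differed in summed level between the groups. Neutrophil, T and NK cell and B and plasma cell sums were higher in the knockouts without overlap, as 25.4% of single genes tested had none in either direction. Sums of macrophage, skeletal muscle and erythrocyte markers overlapped. The 10 neutrophil markers summed to 590, 637 and 212 CPM in knockout replicates 1 to 3 and to 209, 147 and 120 CPM in control replicates 1 to 3. Knockout replicate 3 was thus barely above control replicate 1. The 10 T and NK cell markers summed to 83.6, 67.4 and 65.7 CPM in the knockouts and 37.6, 24.3 and 19 CPM in the controls, and the 10 macrophage markers to 4590, 5420 and 3390 CPM in the knockouts and 3490, 2920 and 2770 CPM in the controls. Markers of skeletal muscle, the tissue around the femoral artery, summed to 224, 1850 and 460 CPM in the knockouts and 693, 6400 and 3470 CPM in the controls, with all 13 tested members negative. None of the neutrophil markers passed the test (8 of 10 positive, median log2 change 1.51), while 3 T and NK cell markers and 2 macrophage markers, Csf1r and Itgam, rose. The share called was 0% of neutrophil, 30% of T and NK cell, 20% of macrophage and 30% of B and plasma cell markers. Of all genes tested, 2.51% were called. The 10 B and plasma cell markers summed to 425, 459 and 297 CPM in the knockouts and 257, 265 and 224 CPM in the controls. All 10 were positive (median 0.66), and 3 rose. Erythrocyte markers summed to 1780, 3030 and 1810 CPM in the knockouts and 5790, 8320 and 2780 CPM in the controls. In bulk tissue, a change in the number of cells of a type and a change of RNA per cell cannot be told apart, and the part of these shifts in the results below was not tested. The fit was repeated with skeletal muscle level as a covariate, but muscle markers were themselves lower in the knockouts (median log2 change -2.05). That fit therefore cannot fully tell muscle content from genotype.

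**Figure D1:**
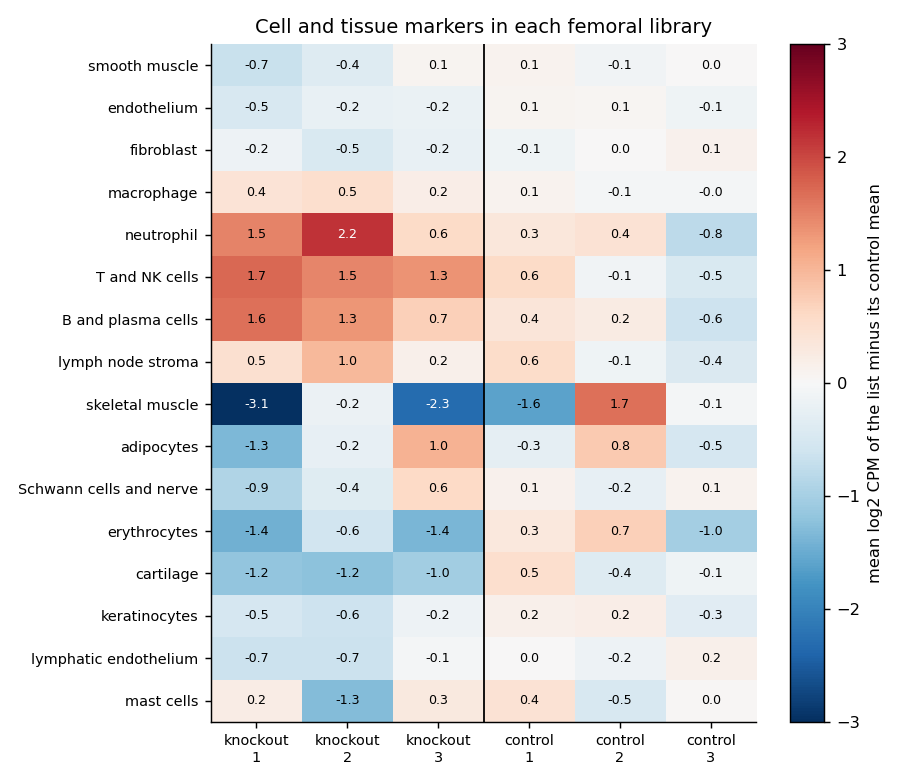
Mean log2 CPM of each marker list (rows), less the list's mean over the 3 control libraries, in the 3 knockout libraries, left, and the 3 control libraries, right; colour and the printed number both give this difference. Neutrophil and T and NK cell markers were higher in the knockout columns, and skeletal muscle markers were lowest in knockout replicates 1 and 3.

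Nfe2l3 (chr6:51432670-51458768, GRCm38, plus strand) had 11, 2 and 0 counts in knockout replicates 1 to 3 and 48, 81 and 37 counts in control replicates 1 to 3. Every knockout library lay below every control, on low counts in both groups. The log2 change was -3.50 ± 0.78 (edgeR quasi-likelihood, adjusted p = 0.0472; error is the standard error throughout), so the targeted transcript was reduced in the direction of the labels. The edgeR call was lost without knockout replicate 2 (adjusted p = 0.162) or without control replicate 1, 2 or 3 (edgeR adjusted p = 0.0755, 0.16 and 0.112). Within 5 Mb of the gene, 1 of 114 tested genes was called, Nfe2l3 itself.

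Of 21343 genes tested, 535 differed between knockout and control femoral arteries at an adjusted p under 0.05 (edgeR quasi-likelihood test with Benjamini-Hochberg adjustment), which is 2.51% of all genes tested. Of these, 393 rose in the knockout (1.84% of genes tested) and 142 fell (0.665%), and 269 of the rises and 76 of the falls were at least 2-fold. Rises had a median log2 change of 1.32 and falls of -1.05, against -0.022 over all genes tested. The count depended on which library was left out. Without knockout replicate 3, 990 genes rose and 327 fell (6.21% of genes tested in that fit), while without any 1 of the other 5 libraries 46 to 132 rose and 27 to 50 fell. In 396 of the 535 genes (74.0%) knockout replicate 3 was the knockout library nearest to the controls. With skeletal muscle level as a covariate, 88 genes rose and 56 fell (0.675%), and 138 of these 144 were among the 535. A lost call there need not be a lost change. Cd300lf, Il4ra and Cd34, for instance, lost the call with log2 changes of 2.14, 1.09 and -0.64, against 2.35, 1.17 and -0.57 in the main fit. With replicate number as a block, 570 rose and 203 fell (3.62%). A set of 57 genes, 36 rises and 21 falls, was called whichever single femoral library was left out, and the genes described first below come mainly from it. Since strain and littermate status are not given in the labels, loss of Nrf3 and other genetic differences between knockout and control mice cannot be told apart. This holds for all 535 called genes, Trim5, Nnt and the Mup and Trim copies included.

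**Figure D2:**
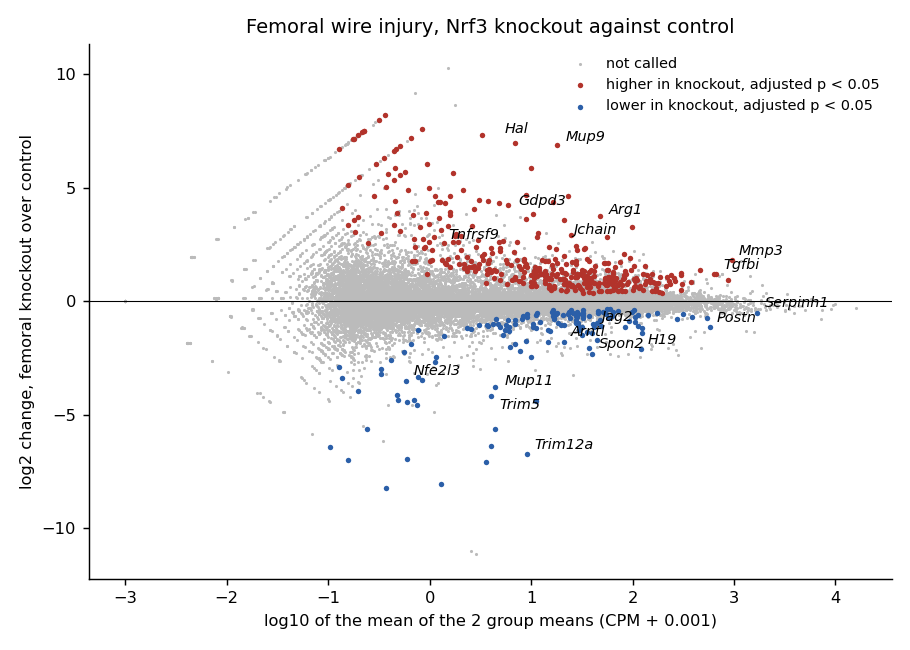
Log2 change of each tested gene, knockout over control femoral arteries (vertical axis), against mean level (horizontal axis, log10 of the mean of both group means in CPM, plus 0.001); red and blue points are the 393 rises and 142 falls that passed the test, and grey points did not. Rises outnumbered falls, and the largest changes belong to genes of low and middle level.

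Large rises of genes with a settled name included an enzyme, a lipocalin and an interferon-induced GTPase. Hal, histidine ammonia-lyase, which starts histidine breakdown and is known from liver and skin (chr10:93488768-93516761, plus strand), was at 14.8, 10.8 and 15.7 CPM in knockout replicates 1 to 3 and 0.284, 0.0203 and 0.0184 CPM in control replicates 1 to 3. Its log2 change was 6.96 ± 0.66 (edgeR adjusted p = 0.00109), with groups far apart. Mup9, a major urinary protein known from liver (chr4:60418046-60421961, minus strand), was at 22.5, 35.3 and 48.4 CPM in the knockouts and 0.0757, 0.427 and 0.386 CPM in the controls (log2 change 6.90 ± 0.67, edgeR adjusted p = 0.00111). Another member of that cluster went the other way: Mup11 was at 0.423, 0.496 and 0.891 CPM in the knockouts and 7.0, 9.33 and 8.47 CPM in the controls (log2 change -3.77 ± 0.64, edgeR adjusted p = 0.0253, and up to 0.11 with 1 library left out). Mup genes are near-identical copies whose reads the counting may have split, so which copy gave the reads is uncertain. Gbp2b, an interferon-induced guanylate-binding protein, was less even, at 19.1, 2.5 and 30.4 CPM in the knockouts and 1.55, 0.447 and 0.0184 CPM in the controls (log2 change 4.68 ± 1.05, edgeR adjusted p = 0.0472, 0.0516 with the replicate block and up to 0.168 with 1 library left out).

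Since Nrf3 binds antioxidant response elements, the 250 bases before the start of Hal and of Gbp2b are shown, the largest named rises whose window of 250 bases before to 50 after the start held the core of that element. The sequences are from RefSeq (GRCm38.p6) and run 5′ to 3′ on the gene's strand. Capitals mark a match to TGACNNNGC or TGAGNNNGC on either strand in both and, in Gbp2b, also a match to the interferon response element on the reverse strand.
Hal, chr10:93488518-93488767, plus strand: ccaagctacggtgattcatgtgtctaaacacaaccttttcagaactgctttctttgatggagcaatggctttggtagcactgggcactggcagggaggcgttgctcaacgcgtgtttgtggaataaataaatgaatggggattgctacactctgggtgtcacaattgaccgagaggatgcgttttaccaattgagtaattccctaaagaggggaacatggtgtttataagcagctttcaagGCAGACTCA
Gbp2b, chr3:142594597-142594846, plus strand: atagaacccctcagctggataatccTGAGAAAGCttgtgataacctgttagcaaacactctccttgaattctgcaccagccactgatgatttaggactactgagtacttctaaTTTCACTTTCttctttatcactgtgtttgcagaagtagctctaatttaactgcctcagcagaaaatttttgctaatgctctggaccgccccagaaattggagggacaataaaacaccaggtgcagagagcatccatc
Over both strands, the antioxidant core was present in the window of 34.5% of 264 rises and 25.5% of 98 falls with a listed promoter, against 30.7% of 14016 tested genes and 27.8% of all 32851 promoters of the table. The circadian E-box CACGTG was in 8.71% of rises, 6.12% of falls and 9.26% of tested genes, and the interferon response element in 4.55% of rises, 7.14% of falls and 3.12% of tested genes. The falls with the interferon element numbered 7 and included Trim5, Trim12a, Trim34a and Trim30d, neighbouring paralogs on chromosome 7. These shares describe letters in a window and show no binding.

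Among rises that held whichever femoral library was left out, several genes act in macrophages and activated lymphocytes. Arg1, the arginase of alternatively activated macrophages, which turns arginine into ornithine and urea (chr10:24915207-24927470, minus strand), was at 130, 91.4 and 46.2 CPM in knockout replicates 1 to 3 and 7.10, 6.73 and 6.07 CPM in control replicates 1 to 3. Its log2 change was 3.75 ± 0.50 (edgeR adjusted p = 0.00656), and the lowest knockout library stood well above the highest control. Gdpd3, a lysophospholipase D of the glycerophosphodiesterase family, was at 21.3, 25.5 and 12.1 CPM in the knockouts and 1.57, 1.44 and 1.10 CPM in the controls (log2 change 3.84 ± 0.44, edgeR adjusted p = 0.00289). Tnfrsf9, the costimulatory receptor 4-1BB of activated T cells, was at 15.8, 15.2 and 6.47 CPM in the knockouts and 1.70, 2.5 and 2.04 CPM in the controls (log2 change 2.59 ± 0.33, edgeR adjusted p = 0.0058). Jchain, the joining chain of secreted IgA and IgM, was at 45.8, 50.6 and 20.1 CPM in the knockouts and 2.44, 5.61 and 1.73 CPM in the controls (log2 change 3.58 ± 0.49, edgeR adjusted p = 0.00775). Ltb4r1, the high-affinity leukotriene B4 receptor of neutrophils and other leukocytes, was at 24.8, 24.4 and 15.2 CPM in the knockouts and 6.64, 6.49 and 5.50 CPM in the controls (log2 change 1.79 ± 0.24, edgeR adjusted p = 0.00775). In all 5 genes knockout replicate 3 was the lowest knockout library and still lay above every control.

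**Figure D3:**
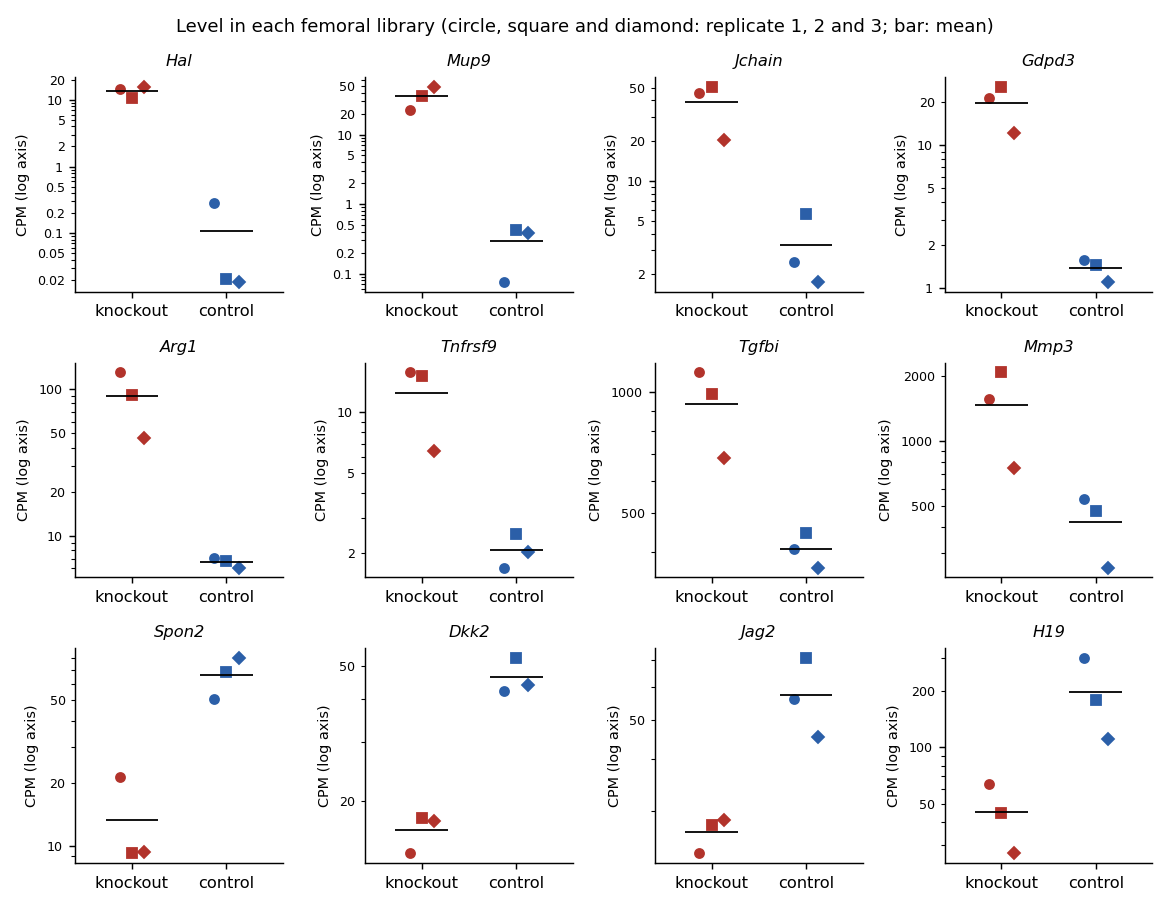
Level in CPM (log axis) of 12 genes in each knockout library, left, and each control library, right; circle, square and diamond are replicates 1, 2 and 3 and the bar is the mean. Knockout and control libraries do not overlap in any of the 12 panels, which include 4 falls in the bottom row.

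Other rises of this set were Cdh1, Ccl5, Alpk1 and Itgad, the first 3 with knockout libraries close together. Cdh1, E-cadherin of epithelial junctions, was at 11, 12.2 and 10.4 CPM in the knockouts and 2.29, 2.62 and 2.48 CPM in the controls (log2 change 2.19 ± 0.25, edgeR adjusted p = 0.00258). Ccl5, the T cell and monocyte chemokine RANTES, was at 25.9, 26.8 and 28.6 CPM in the knockouts and 9.77, 7.48 and 5.29 CPM in the controls (log2 change 1.85 ± 0.24, edgeR adjusted p = 0.0058). Alpk1, a kinase that senses bacterial sugars, was at 40.7, 41.2 and 35.3 CPM in the knockouts and 12.2, 10.5 and 13.2 CPM in the controls (log2 change 1.71 ± 0.16, edgeR adjusted p = 0.000942). Itgad, the alpha D chain of a leukocyte integrin, was low, at 2.83, 2.91 and 1.08 CPM in the knockouts and 0.227, 0.244 and 0.0551 CPM in the controls (log2 change 3.69 ± 0.53, edgeR adjusted p = 0.0104). Cdh1 and Ccl5, and Nnt below, fall outside the rule for named genes and were chosen after their values were seen, as members of this set.

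Other large rises were uneven across the knockouts. Ubd, the ubiquitin-like modifier FAT10 induced by interferon gamma and TNF, was at 22.9, 29.4 and 10.8 CPM in knockout replicates 1 to 3 and 4.49, 2.70 and 0.698 CPM in control replicates 1 to 3 (log2 change 3.00 ± 0.57, edgeR adjusted p = 0.0329). Adgrg5, an adhesion G protein-coupled receptor of leukocytes, was at 21.2, 28.3 and 10.2 CPM in the knockouts and 3.99, 2.83 and 1.56 CPM in the controls (log2 change 2.83 ± 0.41, edgeR adjusted p = 0.0107). Gpr84, a receptor for medium-chain fatty acids on myeloid cells, was at 12.5, 9.72 and 5.0 CPM in the knockouts and 2.18, 0.854 and 1.29 CPM in the controls (log2 change 2.65 ± 0.60, edgeR adjusted p = 0.048). Knockout replicate 3 was again the lowest knockout library in all 3 genes. Gzmb, the cytotoxic protease granzyme B, differed in this, at 9.13, 6.56 and 9.10 CPM in the knockouts and 2.31, 0.834 and 0.901 CPM in the controls (log2 change 2.61 ± 0.46, edgeR adjusted p = 0.025). Mzb1, a chaperone of antibody-secreting cells, rose by 2.69 ± 0.49 and Fcrlb, an Fc receptor-like protein of B cells, by 2.36 ± 0.44 on the log2 scale (edgeR adjusted p = 0.0284 and 0.0301). With 1 library left out, the adjusted p of these 6 genes reached 0.0625 to 0.169.

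By absolute level, the largest rises were secreted matrix-modifying proteins, a chemokine and metallothioneins. Tgfbi, a matrix protein induced by TGF-beta, was at 1120, 992 and 687 CPM in knockout replicates 1 to 3 and 406, 444 and 365 CPM in control replicates 1 to 3 (log2 change 1.20 ± 0.17, edgeR adjusted p = 0.00842, at most 0.049 with 1 library left out). Mmp3, the matrix metalloproteinase stromelysin 1, was at 1570, 2080 and 745 CPM in the knockouts and 535, 471 and 258 CPM in the controls (log2 change 1.80 ± 0.37, edgeR adjusted p = 0.0383). Timp1, an inhibitor of such proteases, was at 990, 1050 and 630 CPM in the knockouts and 367, 440 and 337 CPM in the controls (log2 change 1.22 ± 0.19, edgeR adjusted p = 0.0173). Protease and inhibitor were thus both higher in all 3 knockouts than in any control. Cxcl12, the chemokine that binds CXCR4, was at 1200, 1260 and 981 CPM in the knockouts and 718, 524 and 581 CPM in the controls (log2 change 0.92 ± 0.17, edgeR adjusted p = 0.0278). The metal-binding proteins Mt2 and Mt1 rose by 1.39 ± 0.24 and 1.14 ± 0.20 on the log2 scale (edgeR adjusted p = 0.0217 and 0.025), with Mt2 at 616, 875 and 507 CPM in the knockouts and 322, 261 and 177 CPM in the controls. Ccr2, the receptor that brings monocytes out of marrow and into tissue, was at 465, 507 and 286 CPM in the knockouts and 195, 184 and 158 CPM in the controls (log2 change 1.23 ± 0.25, edgeR adjusted p = 0.0377), and Csf1r, the receptor for the macrophage growth factor CSF1, rose by 0.83 ± 0.19 (edgeR adjusted p = 0.0472). Of the 10 rises of this kind, 1 passed without knockout replicate 1, 1 without knockout replicate 2, 10 without knockout replicate 3, and 5, 2 and 1 without control replicates 1, 2 and 3. With the skeletal muscle covariate 2 of the 10 passed.

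Among falls with a settled name that held in every omission were a TRIM protein, secreted regulators and a clock factor. Trim5, the capsid-binding restriction factor of the study's title (chr7:104263386-104288415, minus strand), was at 0.444, 0.406 and 0.394 CPM in the knockouts and 9.24, 6.63 and 6.78 CPM in the controls (log2 change -4.18 ± 0.42, edgeR adjusted p = 0.00123). Spon2, a secreted matrix protein of the F-spondin family, was at 21.4, 9.24 and 9.41 CPM in the knockouts and 50.5, 68.1 and 79.8 CPM in the controls (log2 change -2.31 ± 0.32, edgeR adjusted p = 0.00887). Arntl, which encodes the clock activator BMAL1, was at 10.7, 8.12 and 9.49 CPM in the knockouts and 34.1, 22.2 and 41.3 CPM in the controls (log2 change -1.79 ± 0.22, edgeR adjusted p = 0.00436). In all 3 genes the highest knockout library lay below the lowest control. Dkk2, a secreted Wnt modulator, was at 14.1, 17.9 and 17.5 CPM in the knockouts and 42.2, 52.8 and 43.9 CPM in the controls (log2 change -1.49 ± 0.19, edgeR adjusted p = 0.00463). Nrep, a small protein of myofibroblasts and regenerating neurons, was at 63.5, 64.0 and 73.9 CPM in the knockouts and 135, 195 and 205 CPM in the controls (log2 change -1.41 ± 0.16, edgeR adjusted p = 0.00287). Nnt, the mitochondrial transhydrogenase that makes NADPH from NADH, was at 29.5, 26.6 and 33.1 CPM in the knockouts and 57.8, 53.4 and 64.6 CPM in the controls (log2 change -0.98 ± 0.10, edgeR adjusted p = 0.00171). Mrps12, a mitochondrial ribosomal protein, was the fall of smallest p with a settled name, at 8.67, 8.73 and 8.56 CPM in the knockouts and 20.8, 22.8 and 19.2 CPM in the controls (log2 change -1.28 ± 0.10, edgeR adjusted p = 0.000199).

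Other large falls lost their call without at least 1 library. H19, an imprinted long non-coding RNA high in fetal tissue, was at 64.0, 44.9 and 27.3 CPM in the knockouts and 299, 178 and 111 CPM in the controls (log2 change -2.11 ± 0.42, edgeR adjusted p = 0.036). Npas2, a clock activator related to CLOCK, was at 5.05, 1.04 and 3.09 CPM in the knockouts and 20.1, 8.03 and 23.2 CPM in the controls (log2 change -2.48 ± 0.50, edgeR adjusted p = 0.0361). Angptl1, a secreted angiopoietin-like protein, was at 21.2, 12.8 and 9.66 CPM in the knockouts and 50.1, 42.0 and 90.1 CPM in the controls (log2 change -2.06 ± 0.36, edgeR adjusted p = 0.025). Ptn, the growth factor pleiotrophin, and Thbs4, a matricellular thrombospondin, fell by 1.78 ± 0.33 and 1.4 ± 0.32 on the log2 scale (edgeR adjusted p = 0.0284 and 0.0482). With 1 library left out, the edgeR adjusted p of these 5 genes reached 0.106 to 0.169, and Thbs4 was not called with the replicate block (edgeR adjusted p = 0.0585). Of the 15 largest named falls, 7 and 6 passed without knockout replicates 1 and 2, 14 without knockout replicate 3, and 9, 9 and 7 without control replicates 1, 2 and 3. The 15 largest named rises kept 8, 9 and 14 calls without knockout replicates 1, 2 and 3, and 11, 7 and 8 without control replicates 1, 2 and 3.

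By absolute level, the 10 falls included a collagen chaperone and several secreted matrix proteins. Serpinh1, the collagen chaperone HSP47, was at 1610, 1260 and 1330 CPM in knockout replicates 1 to 3 and 1900, 2020 and 2030 CPM in control replicates 1 to 3 (log2 change -0.51 ± 0.11, edgeR adjusted p = 0.0404). Postn, the matricellular protein periostin of activated fibroblasts, was at 469, 344 and 266 CPM in the knockouts and 937, 592 and 857 CPM in the controls (log2 change -1.15 ± 0.22, edgeR adjusted p = 0.0339). Ccdc80, a secreted matrix protein, was at 399, 331 and 474 CPM in the knockouts and 603, 644 and 788 CPM in the controls (log2 change -0.76 ± 0.15, edgeR adjusted p = 0.0353). The microfibril-associated proteins Mfap5 and Mfap4 fell by 0.71 ± 0.15 and 0.79 ± 0.13 on the log2 scale (edgeR adjusted p = 0.0407, or 0.0503 with the replicate block, for Mfap5 and 0.0179 for Mfap4). Mfap4 was at 231, 182 and 195 CPM in the knockouts and 333, 333 and 388 CPM in the controls. Tnfrsf11b, osteoprotegerin, the decoy receptor of RANKL, was at 79.4, 57.7 and 86.7 CPM in the knockouts and 160, 142 and 210 CPM in the controls (log2 change -1.19 ± 0.23, edgeR adjusted p = 0.0343). Cd34, a sialomucin of endothelial and adventitial stromal cells, fell by 0.57 ± 0.12 (edgeR adjusted p = 0.0404), and Hsph1, a heat shock protein, by 1.08 ± 0.21 (edgeR adjusted p = 0.036). Of the 10 genes, which include H19 and Nrep, 4, 1 and 8 passed without knockout replicates 1, 2 and 3, and 2, 2 and 3 without control replicates 1, 2 and 3. The 10 fibroblast markers, which include Cd34 and Mfap5, had a median log2 change of -0.36 and summed to 17100, 11000 and 13400 CPM in the knockouts and 14100, 15200 and 19600 CPM in the controls. The part of fibroblast content in these falls was not tested.

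Rises included receptors of myeloid cells. All 32 tested members of the list of ITAM receptors and adaptors had a positive change (median log2 change 1.01, against -0.022 for all genes). ITAM adaptors couple Fc, TREM and C-type lectin receptors to the kinase Syk, but the list also holds inhibitory receptors, Fcgr2b among them. Of the 32 members, 6 rose and none fell (18.8% called, against 2.51% of all genes). Cd300lf, a phospholipid receptor of myeloid cells, was at 73.3, 67.9 and 30.1 CPM in the knockouts and 16, 10.1 and 7.44 CPM in the controls (log2 change 2.35 ± 0.45, edgeR adjusted p = 0.0331). Trem1, an amplifier of neutrophil and monocyte activation, was at 38.9, 33.1 and 15.6 CPM in the knockouts and 8.36, 5.69 and 3.88 CPM in the controls (log2 change 2.29 ± 0.47, edgeR adjusted p = 0.0384). Clec5a, a lectin receptor that signals through DAP12, rose by 1.77 ± 0.37, and Fcgr2b, the inhibitory IgG receptor, by 1.15 ± 0.24 (edgeR adjusted p = 0.0404 and 0.0403). The 6 calls became 0 without knockout replicate 1 or 2 or control replicate 2 or 3, 1 without control replicate 1 and 17 without knockout replicate 3. They became 13 with the replicate block and 0 with the skeletal muscle covariate. Neutrophil and macrophage markers moved with these genes, as given above, and their part was not tested.

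Sensing and cytokine signalling genes had positive medians, and most members did not pass. Of the NF-kB and JAK-STAT lists, 27.3% and 12.9% of members were called, against 2.51% of all genes tested. Of 29 Toll-like receptor and inflammasome genes, 27 were positive (median 0.70) and 1 rose (3.45%, near the 2.51% of all genes), Aim2, the sensor of cytosolic DNA, at 20.3, 18.1 and 9.37 CPM in the knockouts and 7.49, 5.88 and 4.91 CPM in the controls (log2 change 1.39 ± 0.28, edgeR adjusted p = 0.036). All 22 NF-kB subunits and inhibitors were positive (median 0.65), and 6 rose. Among them, Nfkb2, the precursor of the p52 subunit, was at 140, 131 and 105 CPM in the knockouts and 84.6, 79.4 and 80.1 CPM in the controls (log2 change 0.62 ± 0.11, edgeR adjusted p = 0.0207). The brakes Zc3h12a, an RNase that degrades cytokine messages, and Tnip1, which binds A20, rose by 1.28 ± 0.24 and 0.62 ± 0.11 on the log2 scale, and the ubiquitin ligase Birc3 by 1.02 ± 0.19 (edgeR adjusted p = 0.0296, 0.0286 and 0.0331). Activator and inhibitors of this pathway were therefore both higher. Of 31 JAK-STAT genes, 26 were positive (median 0.31) and 4 rose. The kinase Jak2 was at 162, 160 and 114 CPM in the knockouts and 84.9, 70.6 and 71.0 CPM in the controls (log2 change 0.94 ± 0.16, edgeR adjusted p = 0.0207), and Il4ra, the shared receptor chain for IL-4 and IL-13, was at 405, 349 and 234 CPM in the knockouts and 166, 125 and 146 CPM in the controls (log2 change 1.17 ± 0.21, edgeR adjusted p = 0.0253). Il6ra and Stat5a rose by 0.95 ± 0.21 and 0.37 ± 0.08 (edgeR adjusted p = 0.0435 and 0.036). Without knockout replicate 1 or 2 or control replicate 2 or 3, none of these 82 genes passed. Without knockout replicate 3, 12, 11 and 13 of the Toll, NF-kB and JAK-STAT genes rose, and without control replicate 1, 1, 3 and 2 did. The block gave 4 rises in the Toll list and 7 in the JAK-STAT list, and the skeletal muscle covariate left 0 Toll, 1 NF-kB and 0 JAK-STAT rises.

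Of the adhesion, costimulation and dendritic cell lists, 23.1%, 23.1% and 17.6% of members were called, against 2.51% of all genes tested. Among genes of leukocyte traffic and activation, 5 of 26 adhesion genes rose and 1 fell (median 0.59, against -0.022 for all genes). The risers were Itgad, given above, Itga4, the alpha 4 chain that binds VCAM-1, Itgam, the alpha chain of Mac-1, Cd44, the hyaluronan receptor, and Itgb7, the beta chain of gut-homing integrins, which lies outside the rule for named genes. Itgam was at 248, 192 and 151 CPM in the knockouts and 122, 87.5 and 86.6 CPM in the controls (log2 change 0.99 ± 0.22, edgeR adjusted p = 0.0446), and Cd44 at 389, 370 and 305 CPM in the knockouts and 255, 247 and 249 CPM in the controls (log2 change 0.50 ± 0.10, edgeR adjusted p = 0.036). The faller was Cd34. Of 26 costimulation and checkpoint genes, 24 were positive (median 1.24) and 6 rose. These included the inhibitory ligand Cd274 (PD-L1), at 35.4, 28.4 and 18 CPM in the knockouts and 12.1, 7.93 and 5.46 CPM in the controls (log2 change 1.68 ± 0.35, edgeR adjusted p = 0.0404). Il2ra, the alpha chain of the IL-2 receptor, and Havcr2, the inhibitory receptor TIM-3, rose by 1.48 ± 0.32 and 1.22 ± 0.26 (edgeR adjusted p = 0.0435 and 0.0424). Of 17 dendritic cell genes 3 rose (median 0.77): Irf8 and Irf4, transcription factors of dendritic cell subsets, by 1.05 ± 0.19 and 1.07 ± 0.24, and the chemokine Ccl22 by 1.63 ± 0.36 (edgeR adjusted p = 0.0296, 0.0479 and 0.045). Itgad in the adhesion list and Tnfrsf9 in the costimulation list were the calls left without knockout replicate 1 or 2 or control replicate 2 or 3, and no dendritic cell gene passed in these fits. Without knockout replicate 3, 8, 15 and 6 members of the adhesion, costimulation and dendritic cell lists rose, and without control replicate 1, 2, 2 and 0 did. The block gave 8 rises and 2 falls in the adhesion list. With the skeletal muscle covariate 1 adhesion gene, 1 costimulation gene and 0 dendritic cell genes rose.

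Acute phase and lipid mediator genes also included rises. Called members made up 18.2%, 12.9% and 10% of the acute phase, eicosanoid and amino acid lists, against 2.51% of all genes tested. Of 22 tested acute phase genes 21 were positive (median 1.33) and 4 rose: Mt1 and Mt2, Orm2, a serum glycoprotein, and Serpina3g, a protease inhibitor of activated leukocytes. Serpina3g was at 79.5, 109 and 57.1 CPM in the knockouts and 45.8, 26.7 and 22.6 CPM in the controls (log2 change 1.37 ± 0.30, edgeR adjusted p = 0.0457), and Orm2 was at 3.26, 3.00 and 2.57 CPM in the knockouts and 0.265, 0.244 and 0.11 CPM in the controls (log2 change 3.82 ± 0.75, edgeR adjusted p = 0.0353). Of 31 eicosanoid genes, 4 rose and 19 were positive (median 0.16). Beside Ltb4r1, these were Alox5ap, the partner of 5-lipoxygenase, by 0.89 ± 0.20, Tbxas1, thromboxane synthase, by 1.02 ± 0.18, and Pla2g7, which inactivates platelet-activating factor, by 1.17 ± 0.26 (edgeR adjusted p = 0.0472, 0.0253 and 0.0457). Alox5ap was at 137, 165 and 106 CPM in the knockouts and 79.4, 82.2 and 58.8 CPM in the controls. Of 30 genes of histidine, arginine and tryptophan metabolism, 3 rose: Hal, Arg1 and Il4i1, an amino acid oxidase of myeloid cells, by 0.89 ± 0.20 (edgeR adjusted p = 0.0457). Without knockout replicate 1 or 2 or control replicate 2 or 3, the acute phase list had 0 rises, the eicosanoid list 1 and the amino acid list 2, and without knockout replicate 3 they had 8, 9 and 6. Without control replicate 1 they had 3, 2 and 3, with the block 6, 4 and 4, and with the skeletal muscle covariate 0, 1 and 2.

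**Figure D4:**
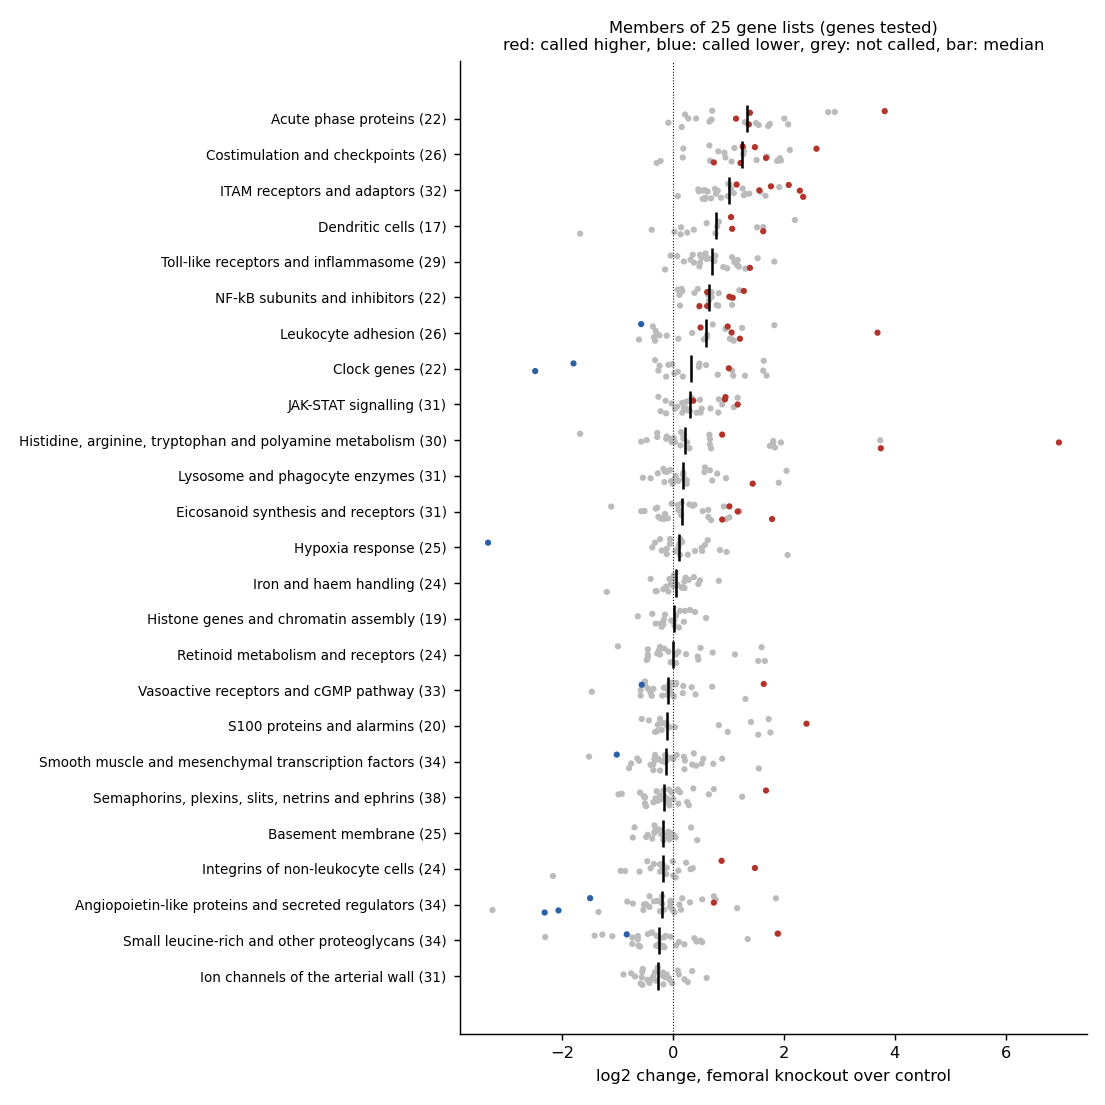
Log2 change, knockout over control femoral arteries (horizontal axis), of every tested member of each gene list (rows); red and blue points passed the test at adjusted p under 0.05 as higher or lower in the knockout, grey points did not, the bar is the list's median, the dotted line marks a change of 0 and the number of genes tested stands after each name. Lists of leukocyte receptors and signalling lie to the right and lists of ion channels and basement membrane to the left, with few members past the test.

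Calls in lists of wall cells were too few to set these lists apart from all genes tested. Of the transcription factor, vasoactive and proteoglycan lists below, 2.94%, 6.06% and 5.88% were called, and of the ion channel and basement membrane lists 0%. The share of all genes tested was 2.51%. None of 31 ion channels of the arterial wall passed, 6 were positive and the median was -0.27; the smallest p belonged to Cacna1h, a T-type calcium channel, at 8.86, 9.70 and 14.8 CPM in the knockouts and 19.6, 19.1 and 23.0 CPM in the controls (log2 change -0.89 ± 0.23, edgeR adjusted p = 0.0729). None of 25 basement membrane genes passed, with 4 positive and a median of -0.17, and Lama2, a laminin chain, was at 105, 61.5 and 106 CPM in the knockouts and 109, 121 and 210 CPM in the controls (log2 change -0.69 ± 0.26, edgeR adjusted p = 0.174). Of 34 smooth muscle and mesenchymal transcription factors, 1 fell, Heyl, a Notch target, at 21.3, 22.5 and 36.6 CPM in the knockouts and 51.9, 49.1 and 61.1 CPM in the controls (log2 change -1.01 ± 0.23, edgeR adjusted p = 0.0479). Of 33 vasoactive receptors and enzymes, Bdkrb2, the bradykinin B2 receptor, rose by 1.64 ± 0.28 and Ramp2, the partner of the adrenomedullin receptor, fell by 0.56 ± 0.10 (edgeR adjusted p = 0.0217 and 0.0264). Of 34 small leucine-rich and other proteoglycans, Prg4, lubricin, rose by 1.89 ± 0.34 and Ecm2 fell by 0.83 ± 0.16 (edgeR adjusted p = 0.0281 and 0.0334), with Prg4 at 226, 118 and 108 CPM in the knockouts and 53.0, 37.4 and 31.6 CPM in the controls. Each of these calls was lost without knockout replicate 1 or 2 and without control replicate 2 or 3.

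Of 24 integrin genes of non-leukocytes, 2 rose (Fermt3, the integrin activator kindlin-3 of blood cells, by 0.88 ± 0.20, and Itgb8 by 1.48 ± 0.31; edgeR adjusted p = 0.0472 and 0.0404). The integrin, secreted regulator and clock lists had 8.33%, 11.8% and 13.6% of members called, against 2.51% of all genes tested. The guidance, hypoxia, lysosome and S100 or alarmin lists had 2.63%, 4.0%, 3.23% and 5.0%, from 1 gene each. A single call brings a list of this size near the share of all genes. Of 38 semaphorin, plexin and related guidance genes, 1 rose, Sema4a, which acts on T cells, at 120, 91.1 and 53.6 CPM in the knockouts and 32.5, 25.7 and 24.3 CPM in the controls (log2 change 1.68 ± 0.27, edgeR adjusted p = 0.0185). Of 34 angiopoietin-like and other secreted regulators, Angptl4, an inhibitor of lipoprotein lipase, rose by 0.74 ± 0.17 (edgeR adjusted p = 0.0472), while Spon2, Dkk2 and Angptl1 fell. Of 25 hypoxia genes, 1 fell, Car9, carbonic anhydrase 9, at 0.106, 0.248 and 0.0622 CPM in the knockouts and 2.12, 0.813 and 1.27 CPM in the controls (log2 change -3.33 ± 0.55, edgeR adjusted p = 0.0188). Of 22 clock genes, Arntl and Npas2 fell and Per1, a repressor of the clock, rose, at 42.9, 56.3 and 34.8 CPM in the knockouts and 19.7, 25.7 and 21.3 CPM in the controls (log2 change 1.01 ± 0.18, edgeR adjusted p = 0.0265). Without knockout replicate 1, 2 or 3, 3, 2 and 4 of the secreted regulators fell, and without control replicates 1, 2 and 3, 3, 3 and 2 did. Car9 was not called without knockout replicate 1 or control replicate 3, Arntl fell in every omission of 1 library, and Per1 was called in only 1 of the 6, that of knockout replicate 3. The hour of collection was not given in the labels, and its part in these values was not tested. Of 31 lysosome and phagocyte genes 1 rose, Tfec, a transcription factor of macrophages, by 1.44 ± 0.30 (edgeR adjusted p = 0.0404), and of 20 S100 and alarmin genes 1 rose, Fpr2, a formyl peptide receptor of neutrophils, by 2.41 ± 0.48 (edgeR adjusted p = 0.0358). None of the 24 iron and haem, 24 retinoid or 19 histone genes passed. The nearest were Fth1, the ferritin heavy chain, with a log2 change of 0.38 ± 0.12, Rara, a retinoic acid receptor, with 0.45 ± 0.13, and Hist1h2bc with -0.63 ± 0.16 (edgeR adjusted p = 0.0999, 0.0892 and 0.0631). Without knockout replicate 3, 2 non-leukocyte integrin, 2 guidance, 5 lysosome and 3 S100 or alarmin genes rose and 2 guidance genes fell, and without control replicate 1, 0, 1, 0 and 1 of them rose. In the other 4 omissions no gene of these 4 lists passed.

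Called genes were spread over the genome, from 1.76% of tested genes on chromosome 2 to 3.57% on chromosome 17 among the autosomes and X, with 2 of 11 genes on Y and 0 of 18 mitochondrial genes, and with 3 dense runs in windows of 1 Mb. On chromosome 7, 7 of 14 tested genes starting between 104244444 and 104470014 were called, 5 falls and 2 rises. Beside Trim5, the falls were Trim12a, Trim34a, Trim30d and an Ensembl gene with no symbol in the table, and the rises Trim34b and Gm17788. Trim12a was at 0.0423, 0 and 0.435 CPM in the knockouts and 20.1, 16.3 and 17.5 CPM in the controls, while Trim34b was at 4.76, 2.62 and 1.78 CPM in the knockouts and 0.0757, 0.142 and 0.147 CPM in the controls (log2 change -6.76 ± 1.08 and 4.62 ± 0.55, edgeR adjusted p = 0.0173 and 0.00367). Neighbouring paralogs thus moved in opposite directions. These genes are copies of one another, and reads may have been split between them. On chromosome 15, 6 of 20 tested genes starting between 78244164 and 78899768 rose: Ncf4 and Rac2 of the phagocyte oxidase, Csf2rb and Csf2rb2, receptor chains for GM-CSF, IL-3 and IL-5, Cyth4 and Sh3bp1. Csf2rb was at 258, 206 and 129 CPM in the knockouts and 92.1, 60.5 and 50.9 CPM in the controls (log2 change 1.54 ± 0.31, edgeR adjusted p = 0.0366). On chromosome 6, 6 of 14 tested genes between 68256404 and 68930269 rose, all kappa light chain variable segments, of which Igkv1-110 was at 10.4, 9.54 and 1.53 CPM in the knockouts and 0.416, 0.346 and 0.239 CPM in the controls (log2 change 4.42 ± 0.89, edgeR adjusted p = 0.0361). Of the 7 called on chromosome 7, 4 to 7 passed with 1 library left out; without knockout replicate 1 or 2 or control replicate 3, none of the 6 genes on either other chromosome did. Without control replicate 1, 2 chromosome 15 and 1 chromosome 6 genes passed, without control replicate 2, 0 and 1, and without knockout replicate 3 all 6 of each. The block kept 4 of the 6 kappa segments, and the skeletal muscle covariate kept 6, 0 and 0 genes on chromosomes 7, 15 and 6.

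A large share of the most extreme calls carried predicted or pseudogene names. A set of 407 called genes reached a mean of 5 CPM in either group and had no overlap of groups, against 25.4% of all tested genes without overlap. Of the 407, 34 had such names or were receptor segments. These made up 12 of the 20 largest rises and 7 of the 20 largest falls of the 407. The share of 34 of 407 is the like one to compare, while 28.3% of all genes tested, at any level, had such names. Over all levels, 26 of 1006 tested pseudogenes rose (2.58%, against 1.84% of all genes) and none fell (against 0.665%). Without knockout replicate 3, 42 pseudogenes rose and 2 fell, and without control replicate 3, 16 rose and none fell. Of the 57 genes called in every omission, 16 were pseudogenes, all rising, and 15 of the 16 were also called in the carotid artery. Atp6v0c-ps2, a pseudogene of a proton pump subunit, was at 43.2, 49.2 and 39.6 CPM in the knockouts and 6.0, 6.22 and 5.07 CPM in the controls (log2 change 2.93 ± 0.16, edgeR adjusted p = 1.87e-05). Gm9825 was at 15.6, 16.1 and 17.2 CPM in the knockouts and 1.53, 1.26 and 1.16 CPM in the controls (log2 change 3.63 ± 0.18, edgeR adjusted p = 1.87e-05). In the other direction, Gm42031 was at 0.0423, 0.0451 and 0.0622 CPM in the knockouts and 8.29, 7.38 and 5.50 CPM in the controls (log2 change -7.07 ± 0.52, edgeR adjusted p = 0.000199). Replicates of these genes lay close together on both sides. Reads of a pseudogene and of its parent gene can be hard to tell apart, so which locus gave them is uncertain.

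A further 4 genes at 0 counts in all libraries of 1 group averaged at least 1 CPM in the other, and none passed. Hist1h2al, annotated as a transcribed pseudogene, was at 1.4, 1.83 and 1.06 CPM in the knockouts and 0 in all controls (edgeR adjusted p = 0.0502), and BC018473 at 3.62, 0 and 5.55 CPM in the knockouts and 0 in all controls (edgeR adjusted p = 0.0581). Svs2 and Svs5, seminal vesicle secretory proteins, were at 0 in all knockouts and reached 15.1 and 16.9 CPM in control replicate 2, 0.246 CPM in control replicate 1 and 0 in control replicate 3. With the replicate block BC018473, Svs2 and Svs5 passed (edgeR adjusted p = 0.0119, 0.032 and 0.0222).

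The femoral changes were set beside those of the ligated carotid artery, where 197 genes were called (0.923% of genes tested, 141 rises and 56 falls). The vessels have separate libraries, but all 11 share 1 estimate of spread. Strain and littermate status are not given for either vessel, so a change shared by both does not tell Nrf3 loss from other genetic differences. Of the 393 femoral rises 358 were positive in the carotid artery and 78 rose there, against 50.5% of all tested genes positive. Of the 142 femoral falls 113 were negative there and 20 fell. Median carotid changes were 0.57 for the rises and -0.33 for the falls, against 0.004 for all genes. Of the 57 genes called in every omission, 42 were called in the same direction in the carotid artery, 1 in the opposite direction and 14 were not called. Hal, Gdpd3, Jchain, Trim5 and Mrps12 are among the 42, with carotid log2 changes of 9.19, 3.86, 3.69, -3.21 and -1.35. Arg1, Tgfbi, Ltb4r1, Cdh1 and Nrep are among the 14, with carotid log2 changes of -0.02, 0.02, 0.06, 0.11 and -0.08. None of these 14 passed the test of the difference between vessels (edgeR adjusted p from 0.169 to 0.843), so they are not shown to be particular to the femoral artery.

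**Figure D5:**
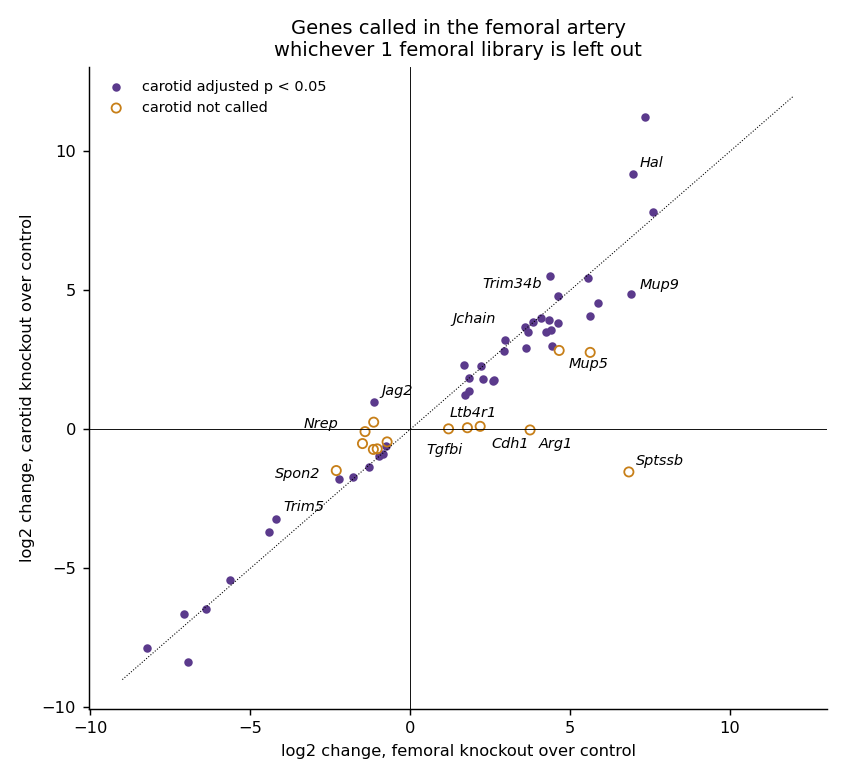
Carotid log2 change (vertical axis) against femoral log2 change (horizontal axis), both knockout over control, for the 57 genes called in the femoral artery whichever 1 femoral library was left out; filled points were also called in the carotid artery and open points were not. Most points lie near the dotted line of equal change, while Arg1, Cdh1, Ltb4r1 and Tgfbi lie near a carotid change of 0 and Jag2 lies in the opposite quadrant.

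The test of carotid minus femoral effect called 1 gene of 21343 (0.00469%), Jag2, a ligand of Notch receptors (chr12:112907803-112929517, minus strand). In the femoral artery Jag2 was at 23.6, 27.6 and 28.4 CPM in knockout replicates 1 to 3 and 56.3, 70.8 and 45.5 CPM in control replicates 1 to 3, a log2 change of -1.12 ± 0.15 (edgeR adjusted p = 0.00716). In the carotid artery it was at 25.9 and 26.7 CPM in the knockouts and 13.6, 12.1 and 14.6 CPM in the controls, a log2 change of 0.97 ± 0.17 (edgeR adjusted p = 0.0254). The knockout libraries of both vessels thus lay between 23.6 and 28.4 CPM, and the controls lay above them in the femoral and below them in the carotid artery. The femoral call held in every omission (edgeR adjusted p at most 0.0386). For the difference of 2.09 between vessels, no gene passed without knockout replicate 1, 2 or 3 or control replicate 1, and 1 did without control replicate 2 or 3. At an unadjusted p under 0.05 the difference test picked 1815 genes.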

How the data were processed

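As deposited, the values are whole read counts, not normalized, of 48897 genes; the 11 libraries were made from polyadenylated RNA and sequenced as paired reads, per the labels, and every value column was used. The submitters' processing notes list the aligner HISAT2, the counter HTSeq and the packages edgeR, DESeq and DESeq2, with neither versions nor what each did here; a strand setting for the counts the authors deposited is not given in the sources used here. The notes name the build mm9, but 99.8% of 39064 genes joined by NCBI gene ID overlap their GRCm38 position, so positions are called GRCm38. In the table, 27 symbols had become dates and were restored from the gene ID.

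Gene members and lists, and the rules below, were chosen with earlier results of these data known. All 11 libraries entered 1 quasi-likelihood fit in edgeR 4.0.16 (R 4.3.3) with a mean per group (7 residual degrees of freedom), after filterByExpr kept 21343 genes (43.6%) and trimmed-mean scaling (TMM); the common biological coefficient of variation was 25.6%. Two-sided p-values were adjusted by Benjamini and Hochberg's method across the 21343 genes, with 0.05 as the limit; a gene's standard error is its absolute log2 change over the square root of its F statistic. Called means past that threshold. The procedure was tested on simulated data. CPM are counts per library size after TMM, and a count of 0 allows up to 3 counts; such limits and all read counts cover counting error only.

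Genes named are Nfe2l3, Trim5 and those picked by rules. The first rules took called genes whose groups did not overlap and of which either averaged 5 CPM or more. Of these, the 15 largest rises and falls by log2 change and the 10 by CPM difference were named. Predicted genes, pseudogenes and receptor segments were left out of both rankings. Further rules took the 10 smallest p, genes at 0 counts in 1 group, and up to 4 called members per list and direction. Called genes in the densest windows of 1 Mb and genes called in the vessel difference were also named. Some of these are covered by counts alone, and 1 is not reported here.

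Replicate numbers in the labels recur in both groups. Same-numbered femoral libraries deviated together from their group means (correlation over 21343 genes 0.17, 0.18 and 0.12, against -0.18 to 0.011 for other pairs), all above 0.1, so the numbers were taken to pair the libraries from the data, not from a stated batch. The main fit does not use this pairing, so its p-values and counts leave it out. Only the replicate block, given as an alternative, uses it. Alternatives were size factors of the DESeq2 type, DESeq2 1.42.0, limma-voom (limma 3.58.1), no filter, femoral libraries alone, a replicate block, a skeletal muscle covariate, protein-coding genes alone and each femoral library left out. Tables and figures used Python 3.11.15, pandas 2.3.3 and matplotlib 3.10.9. Promoter sequences are RefSeq's, first listed per gene.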

Additional observations from a re-analysis of the deposited data

Results flagged for a closer look

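Jag2 is listed here because its changes in the 2 vessels differed in a direct test. The carotid minus femoral difference in log2 change was 2.09 (edgeR interaction test, adjusted p = 0.0394), from 0.97 ± 0.17 in the carotid and -1.12 ± 0.15 in the femoral artery, knockout over control in both. All 3 femoral knockout libraries lay below all 3 femoral controls, and both carotid knockout libraries lay above all 3 carotid controls. The difference was not called with limma-voom, the replicate block or the skeletal muscle covariate, where 0 genes passed.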

How the results depend on the processing

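DESeq2 called 1254 rises and 580 falls, the fit with no filter on low counts 838 and 283, and the fit with the skeletal muscle covariate 88 and 56, against 393 and 142 reported. Leaving out 1 femoral library gave 46 to 990 rises and 27 to 327 falls; only the omission of knockout replicate 3 raised both counts. Scaling by the DESeq2 type of size factor, limma-voom, femoral libraries alone, protein-coding genes alone and the replicate block stayed within 1.5 times of both counts. The replicate block, which the pairing check favoured, gave 570 rises and 203 falls and kept 486 of the 535 calls; the lists whose counts it moved by more than 1.5 times are named in the report, apart from T and NK cell markers (5 rises against 3), lysosome genes (4 against 1), clock genes (3 rises against 1), neutrophil markers (1 rise against 0), guidance genes (2 falls against 0), smooth muscle transcription factors and proteoglycans (2 falls against 1 in each), fibroblast markers (1 fall against 2), amino acid genes (1 fall against 0), erythrocyte markers (5 falls against 0) and cartilage markers (2 falls against 0).

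The test of carotid minus femoral effect called 150 genes with DESeq2, 17 with no filter, 0 with limma-voom, 0 with the replicate block, 0 with the skeletal muscle covariate and 0 or 1 with 1 library left out, against 1 reported. Nfe2l3 was not called with femoral libraries alone (log2 change -3.50, edgeR adjusted p = 0.0814), with the covariate (-3.51, edgeR adjusted p = 0.0956) or among protein-coding genes alone (-3.48, edgeR adjusted p = 0.0549), and its change ranged from -5.48 to -2.90 with 1 library left out (edgeR adjusted p from 0.0265 to 0.162). Of 115 named genes that passed, 1 to 11 lost the call with other scaling, limma-voom, no filter, the block or protein-coding genes alone, 34 with femoral libraries alone and 73 with the covariate; no named gene changed direction. The causes were not tested. With 3 libraries a group, 57 of the 535 calls (10.7%) held in every omission, and genes under 1 CPM rest on few counts.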

Other observations

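Several genes of unrelated roles and moderate level fell by about the same small amount, with little spread between libraries, and were called whichever single femoral library was left out. They were picked after their values were seen. Fam101b, an actin regulator that binds filamin, was at 46.3, 56.2 and 57.1 CPM in knockout replicates 1 to 3 and 111, 134 and 106 CPM in control replicates 1 to 3 (log2 change -1.14 ± 0.14, edgeR adjusted p = 0.00463). Snhg18, a long non-coding RNA that hosts a small nucleolar RNA, was at 18.4, 19 and 21.4 CPM in the knockouts and 41.1, 44.4 and 45.3 CPM in the controls (log2 change -1.15 ± 0.13, edgeR adjusted p = 0.00285). Banp, a DNA-binding protein of CpG-rich promoters, was at 12.7, 15.6 and 13.1 CPM in the knockouts and 26.7, 33.1 and 24.7 CPM in the controls (log2 change -1.03 ± 0.14, edgeR adjusted p = 0.00627). Dusp8, a phosphatase of stress-activated MAP kinases, was at 18.6, 17.9 and 22.4 CPM in the knockouts and 35.9, 32.9 and 37.5 CPM in the controls (log2 change -0.85 ± 0.12, edgeR adjusted p = 0.00775). Scoc, a Golgi protein linked to autophagy, and Wdfy1, an endosomal adaptor, fell by 0.75 ± 0.10 and 0.72 ± 0.09 on the log2 scale (edgeR adjusted p = 0.0059 and 0.0058). In the carotid artery Dusp8 and Scoc were also called (log2 change -0.89 and -0.58, edgeR adjusted p = 0.0152 and 0.0377). Snhg18, Banp and Wdfy1 were negative there but not called (log2 change -0.72, -0.7 and -0.45, edgeR adjusted p = 0.0522, 0.0645 and 0.08). Fam101b was not called there (log2 change 0.26, edgeR adjusted p = 0.49), and its difference between vessels did not pass (edgeR adjusted p = 0.169). In all 6 genes the knockout and control libraries did not overlap, as in 25.4% of all genes tested.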
